A study of Mus musculus with 21 samples.

Results

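Macrophages given FcMR for 12 h were compared with macrophages given the isotype control for 12 h, at the middle one of the 3 treatment times of the study. FcMR is a fusion protein that joins the outer region of the mannose receptor (MR, encoded by Mrc1) to the constant Fc part of a human IgG1 antibody, and the labels name its control only as isotype. The libraries were chosen by their titles: 3 libraries of FcMR at 12 h and 3 of isotype at 12 h, out of 21 libraries in all. The comparison covered 13468 genes tested of the 23250 in the count table. Cells of both groups were MR-deficient macrophages, per the study's design text, on the C57BL/6J background, grown from the marrow of leg bones for 7 days with 2.5% of a supernatant that carries GM-CSF, a growth factor for granulocytes, macrophages and dendritic cells. The deficiency was thus shared by treated and control cells, and FcMR was the added source of the receptor's extracellular region. The allele behind the deficiency, the age and number of the mice, and whether replicates were separate cultures or mice are not given in the sources used here. All p-values therefore measure only the spread between these libraries, which may be technical.

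The mannose receptor is a C-type lectin of macrophages and some endothelial cells that binds mannose-ended and sulphated sugars, takes up glycoproteins, and can be shed from the cell surface as a soluble protein. Macrophages that sense a danger or microbial signal typically switch on the transcription factor NF-kB, which drives cytokine and chemokine genes together with its own inhibitors. Interferon-stimulated genes often follow through STAT factors and interferon regulatory factors, while arginine, lipid and prostanoid metabolism are reset and genes of resting macrophages decline.

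At 12 h the FcMR libraries held 11901472 to 21699811 counts and the isotype libraries 6676302 to 66729533, so that 3 counts corresponded to 0.0450 to 0.449 CPM, counts scaled to the size of the library, a floor that covers counting error only. Mrc1 was counted 5, 4 and 1 times in the FcMR libraries and 3, 0 and 10 times in the isotype libraries and was too low to be tested. All 8 markers of the macrophage list, among them Adgre1, Csf1r, Cd68, Fcgr1, Mertk, Itgam and Lyz2, were tested. Their summed level ran from 19021 to 23072 CPM with FcMR and from 23325 to 25846 CPM with isotype. Most of this sum was Lyz2, at 16016 to 22291 CPM over the 6 libraries. Adgre1 was called higher and 2 of the markers were called lower, among them Itgam. The dendritic cell markers, which GM-CSF cultures can also carry, summed to 1647 to 1808 CPM with FcMR and 1711 to 1830 CPM with isotype. Summed neutrophil markers ran from 305 to 536 CPM against 302 to 398 CPM, and eosinophil markers from 199 to 314 CPM against 176 to 270 CPM. Most of the neutrophil sum came from S100a8 and S100a9, and most of the eosinophil sum from Prg2. Of the dendritic cell markers 1 was called higher and 1 lower, of the neutrophil markers 1 higher, and of the eosinophil markers 1 lower. Siglecf, on the eosinophil list, stood at 9.91, 7.39 and 5.76 CPM with FcMR and 21.9, 18.4 and 14.6 with isotype. The rest of that list did not share this fall. Prg2 was at 270, 162 and 166 CPM with FcMR and 206, 146 and 141 with isotype, with overlap. The groups overlapped for Epx and Il5ra as well. T cell markers summed to at most 4.23 CPM and NK cell markers to at most 1.24 CPM in any of the 6 libraries. In bulk RNA, fewer cells of a type and less RNA per cell cannot be told apart.

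One library of the comparison stood apart. The GC tilt of a library is the mean log2 level of the GC-richest decile of genes minus that of the GC-poorest decile, relative to all 21 libraries. It was −0.73 in FcMR replicate 1, against 0.74 and 0.83 in FcMR replicates 2 and 3 and 0.60, 0.82 and 0.84 in the isotype libraries. The titles open with a library number, and FcMR 12 h replicate 1, number 3355, is out of the order of its group, as is isotype 4 h replicate 3, number 3356. All 6 libraries numbered 3350 to 3355 had a negative tilt, and all 6 numbered 3356 to 3361 a positive one. On the first principal component of the 6 libraries (47.3% of the variance), FcMR replicate 1 lay at −68.2, the other FcMR libraries at −13.4 and −7.93, and the isotype libraries from 26.3 to 35.3. Counts are given below also without this library, or after a correction for GC content, where either changes the number called higher or lower by more than 1.5 times and by 2 genes or more, the higher count first. Of all genes tested, 6.94% were called higher and 6.07% lower without this library, and 14.4% and 11.8% after the GC correction.

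**Figure D1:**
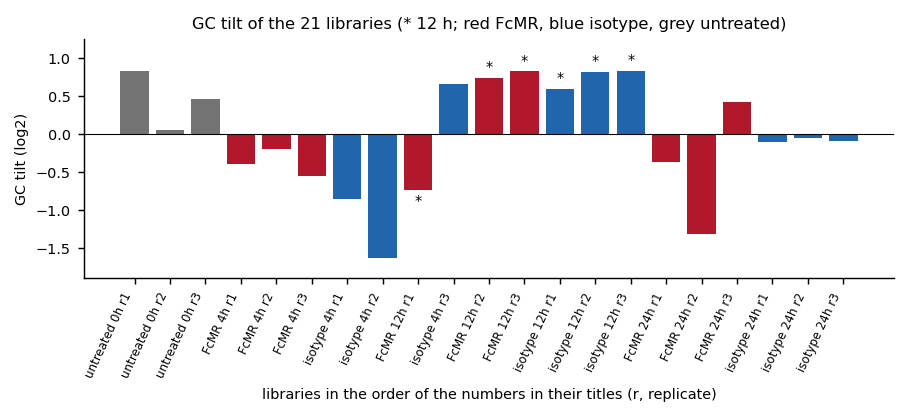
GC tilt (log2) of each of the 21 libraries, drawn as bars in the order of the library numbers in the titles, with FcMR in red, isotype in blue, untreated in grey and the libraries of 12 h marked by a star. FcMR 12 h replicate 1 lies at −0.73 beside 5 libraries of 12 h between 0.60 and 0.84.

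The difference between the groups was tested for every gene with edgeR's quasi-likelihood test, with p-values adjusted by Benjamini-Hochberg over all genes tested, and genes with an adjusted p under 0.05 are described as called. Fold changes are on the log2 scale, FcMR over isotype, so that 1 is a doubling and negative values are lower with FcMR. At 12 h, 2169 genes (16.1% of those tested) were called, 1160 higher (8.61%) and 1009 lower (7.49%) with FcMR. The median over all genes tested was −0.02. More than 2-fold changes made up 384 of the raised and 347 of the lowered genes, and more than 8-fold changes 25 and 6. The 3 FcMR values and the 3 isotype values did not overlap for 4772 genes (35.4%), 2358 of them higher (17.5%) and 2414 lower (17.9%). Without FcMR replicate 1, 1768 genes were called, 945 higher and 823 lower, and 1614 of the 2169 were among them. After the GC correction 3527 were called, 1943 higher and 1584 lower. Protein-coding genes made up 1079 of the raised and 960 of the lowered genes, and long non-coding RNAs 45 and 32. The median GC content was 47.8% for the raised genes, 51.1% for the lowered genes and 49.5% for all genes tested. The part of the library numbers in these counts was not tested.

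**Figure D2:**
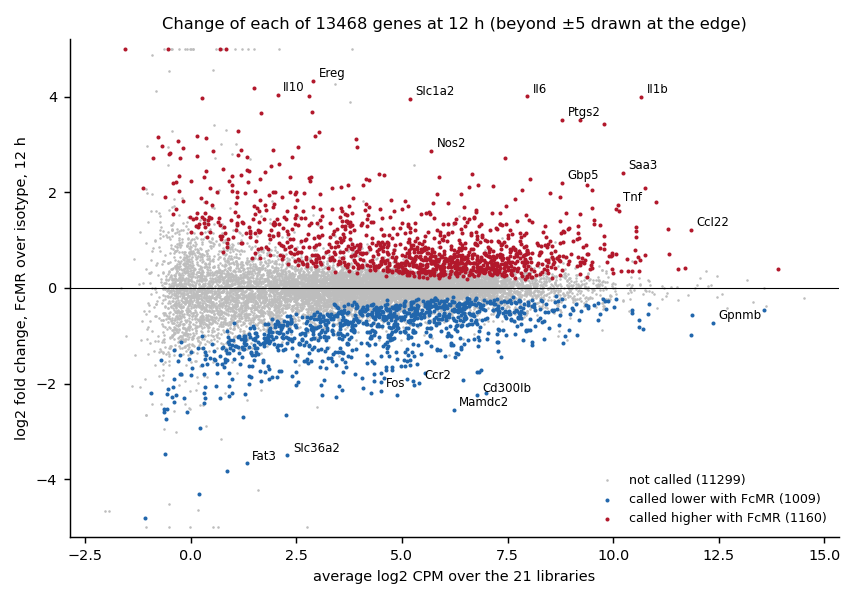
Log2 fold change of FcMR over isotype at 12 h (vertical axis) of each of 13468 genes against its average log2 CPM over the 21 libraries (horizontal axis), with 1160 genes called higher in red, 1009 called lower in blue and the rest in grey, values beyond ±5 drawn at the edge. Among the labelled genes Il1b lies at 4.00 and Mamdc2 at −2.55.

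Of the 12 protein-coding genes of sufficient level raised most, 7 encode cytokines or growth factors (Ereg, Il10, Il6, Il1b, Il12b, Il1a and Csf3). In what follows the 3 values of a group are CPM after TMM scaling in the order of replicates 1, 2 and 3. Ereg, the gene of epiregulin, a ligand of the EGF receptor, stood at 8.73, 6.72 and 7.63 with FcMR and 0.337, 0.44 and 0.379 with isotype (log2 fold change 4.33, SE 0.31, adjusted p 3.22e-08). The groups were far apart, and untreated cells at 0 h held 1.43 ± 0.301 CPM (SD, n = 3). Areg, a further EGF receptor ligand, was at 0.881, 1.05 and 0.971 against 0.393, 0.587 and 0.363 and rose as well (log2 fold change 1.22, SE 0.32, adjusted p 0.0113), whereas Hbegf (0.29, adjusted p 0.356) and Nrg1 (−0.25, adjusted p 0.179) did not pass the test. Slc1a2 (chr2:102658659-102790784, plus strand, GRCm38), a glutamate transporter known best from astrocytes, rose from 7.8, 6.6 and 6.3 CPM in the isotype libraries to 106, 105 and 111 CPM (log2 fold change 3.96, SE 0.16, adjusted p 2.72e-11). Dll4, a Notch ligand, stood at 18.4, 33.9 and 30.1 against 1.18, 3.81 and 2.06 (log2 fold change 3.67, SE 0.42, adjusted p 6.64e-06). Shisa3, a membrane protein of the endoplasmic reticulum, rose by 4.18 and Rnf225, a RING finger gene, by 3.65. Of the 413 genes followed by name, 122 overlap another annotated gene, among them Ereg, Slc1a2, Dll4, Shisa3 and Rnf225. Since the labels do not say whether counting used strand, such counts are uncertain to that extent.

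The 12 protein-coding genes lowered most by the same rule included Cd300lb, a myeloid receptor described with its family below. Mamdc2, which encodes a protein with MAM domains (chr19:23302609-23448442, minus strand), was at 13.5, 13 and 13.4 with FcMR and 72.9, 82 and 79.5 with isotype (log2 fold change −2.55, SE 0.09, adjusted p 5.42e-12), the smallest p-value among all genes named. Untreated cells held 58.5 ± 4.13 CPM, so the isotype libraries were closer to untreated cells than the FcMR libraries were. Emp1, an epithelial membrane protein, stood at 12, 9.52 and 10.7 against 50.9, 46.6 and 49.8 (log2 fold change −2.19, SE 0.13, adjusted p 6.38e-09), with no overlap. Fat3, an atypical cadherin, was counted 2, 1 and 3 times with FcMR and 35, 13 and 99 times with isotype, a 12.3-fold lower scaled level (95% counting interval 5.53 to 34.2). Slc36a2, a proton-coupled amino acid transporter, was at 0.147, 0.437 and 0.68 against 6.39, 4.84 and 4.19 (log2 fold change −3.50, SE 0.42, adjusted p 1.05e-05). Further genes of this end were Scel (−2.70), Nxpe5 (−2.65), Adam11 (−2.29), Fam198b (−2.25), Efr3b (−2.24), Smim5 (−2.22) and Pald1 (−2.20), whose groups did not overlap either.

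Genes were next grouped by function, in 45 lists, and by symbol, in 39 families. No list was tested as a list. Each is described by the members called in each direction, to be read against the 8.61% and 7.49% of all genes called higher and lower, and by its median log2 fold change, to be read against −0.02.

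**Figure D3:**
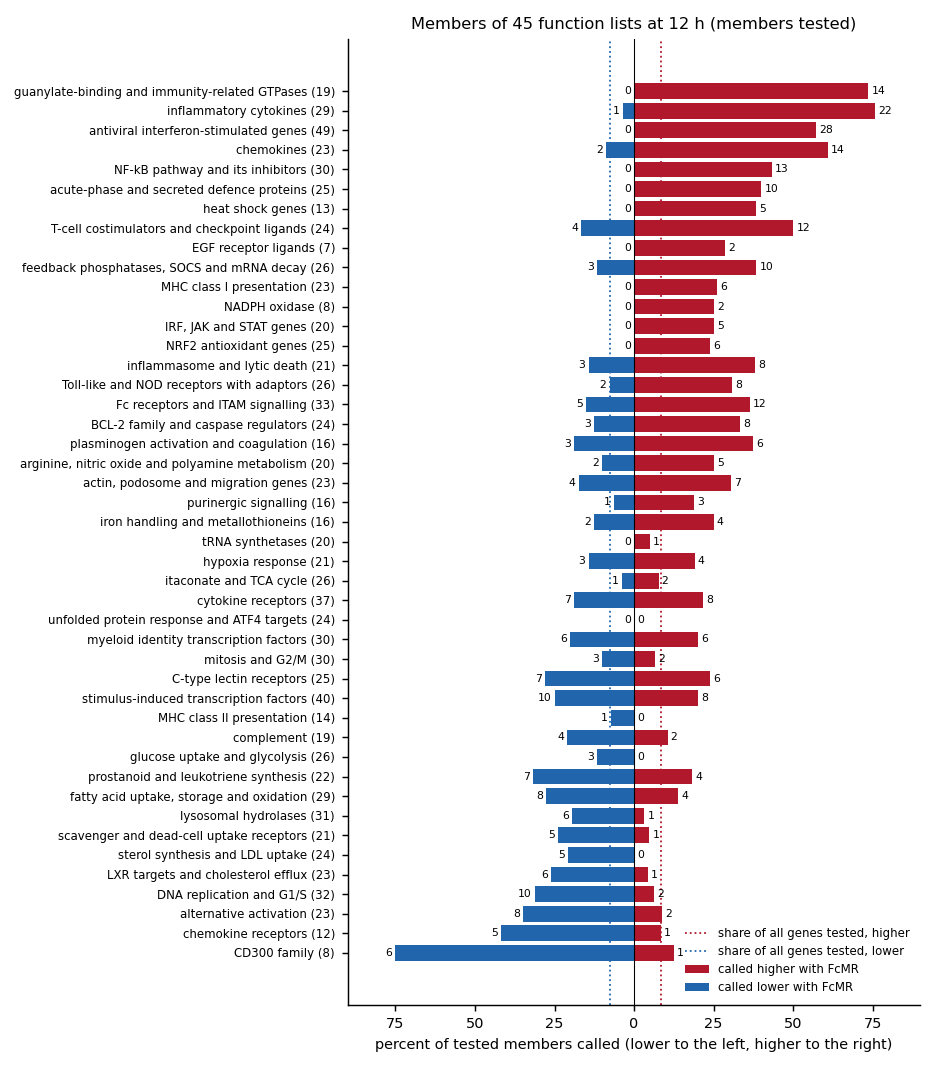
Percent of the tested members of each of 45 function lists called higher (red, to the right) and lower (blue, to the left) with FcMR at 12 h, with the number of members called at the end of each bar, the number tested after the name and the shares of all genes tested as dotted lines (8.61% and 7.49%). Guanylate-binding GTPases and inflammatory cytokines reach furthest to the right and the CD300 family furthest to the left.

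Most inflammatory cytokines were raised, on a list that also holds the anti-inflammatory Il10 and the growth factor gene Vegfa. Of 29 members tested, 22 were called higher, 1 lower and 6 neither, with a median of 1.18 (18 and 1 without FcMR replicate 1). Il6, an inducer of the acute phase, stood at 254, 202 and 176 with FcMR and 12.2, 12.9 and 14 with isotype (log2 fold change 4.01, SE 0.25, adjusted p 6.38e-09). Il1b, the secreted interleukin 1 that caspase-1 matures, was at 2865, 2256 and 2062 against 146, 158 and 145 (log2 fold change 4.00, SE 0.16, adjusted p 2.72e-11), and Il1a, its neighbour on chromosome 2, at 1295, 964 and 785 against 92.5, 102 and 87.6 (log2 fold change 3.43, SE 0.22, adjusted p 9.11e-09). In each case the lowest FcMR library was many times above the highest isotype library. Untreated cells held 2.81 ± 0.834 CPM of Il6 and 105 ± 12.8 CPM of Il1b. Both subunits of interleukin 12, which drives interferon-gamma production by T and NK cells, were raised: Il12b was at 1176, 1072 and 884 against 82.3, 103 and 89.6 (log2 fold change 3.51, SE 0.17, adjusted p 2.61e-10), and Il12a at 16.1, 18.6 and 19.5 against 1.57, 2.2 and 1.97 (log2 fold change 3.26, SE 0.20, adjusted p 6.38e-09).

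Tnf stood at 482, 511 and 462 with FcMR and at 141, 147 and 149 with isotype (log2 fold change 1.74, SE 0.11, adjusted p 6.77e-09), a smaller step than that of Il6 on the log2 scale, and the isotype level was near the 160 ± 5.64 CPM of untreated cells. The anti-inflammatory Il10 rose from 0.505, 0.733 and 0.666 to 12.7, 9.25 and 9.42 CPM (log2 fold change 4.04, SE 0.32, adjusted p 1.02e-07). Il1rn, the interleukin 1 receptor antagonist, rose less, by 0.79 (SE 0.10, adjusted p 3e-05). Csf3, the granulocyte growth factor, stood at 1.83, 1.83 and 1.89 against 0.112, 0 and 0.257, with isotype replicate 2 at 0 (adjusted p 8.92e-05). Lif (2.16), Inhba (1.62), the activin A subunit gene, Tnfsf9 (1.70), the ligand of 4-1BB, and Il18 (1.09) were called higher too. The single member called lower was Vegfa, the endothelial growth factor, at 5.65, 8.64 and 8.55 against 15, 14.1 and 17 (log2 fold change −1.02, SE 0.25, adjusted p 0.0087).

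**Figure D4:**
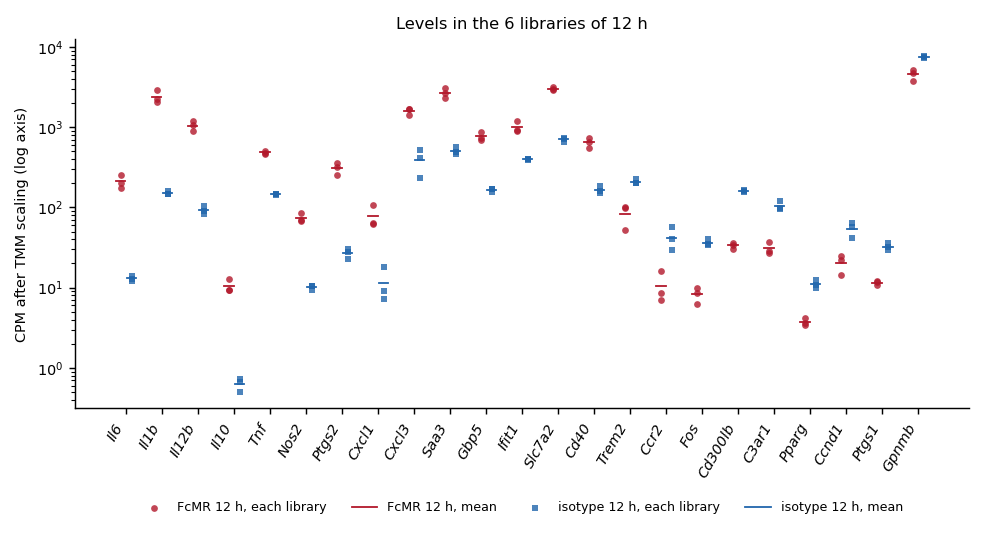
CPM after TMM scaling (log axis) of 23 genes in the 3 FcMR libraries (red circles) and the 3 isotype libraries (blue squares) of 12 h, with a short line at the mean of each group. The groups overlap for none of these genes, from Il10 at 12.7, 9.25 and 9.42 against 0.505, 0.733 and 0.666 to Gpnmb at 3719, 5141 and 4789 against 7349, 7527 and 7647, and levels of different genes are not comparable because they are not scaled by length.

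Chemokines followed in the same direction, with 14 of 23 tested called higher, 2 lower and a median of 0.90 (14 and 2 without FcMR replicate 1). Neutrophil attractants of the CXC type lie in a cluster on chromosome 5. Cxcl1 was at 62.8, 64.2 and 107 against 7.12, 9.1 and 17.9 (log2 fold change 2.72, SE 0.42, adjusted p 0.000131), with FcMR replicate 3 and isotype replicate 3 the highest of their groups. Cxcl2 stood at 288, 404 and 313 against 58.2, 85.1 and 83.9 (log2 fold change 2.15, SE 0.20, adjusted p 6.41e-07), Cxcl3 at 1416, 1695 and 1696 against 233, 416 and 514 (log2 fold change 2.05, SE 0.25, adjusted p 1.1e-05) and Cxcl5 at 42.1, 51.5 and 57.2 against 7.07, 9.1 and 16.8 (log2 fold change 2.15, SE 0.31, adjusted p 8.08e-05). Ppbp, a platelet chemokine of the same cluster, went the other way, at 21.1, 16.6 and 15.5 against 49.7, 53.1 and 48.3 (log2 fold change −1.51, SE 0.16, adjusted p 2.38e-06). The lowest log2 fold change among the 23 chemokines tested was −2.06, that of another member. Attractants of monocytes and T cells also rose: Ccl3 by 1.68, Ccl5 by 1.66, Cxcl9 by 1.52, Cxcl10 by 1.91, Ccl22 by 1.21 and Ccl17 by 1.16, with adjusted p from 9.56e-09 to 0.00045.

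The stretch of 250 bases before the start of 4 of these genes is shown because each holds the kappaB element, the DNA word that NF-kB dimers bind. It was searched as GGG, any 3 bases and TTCC on both strands, overlapping matches counted separately, in windows from RefSeq (GRCm38.p6), and capitals mark the matches. Cxcl1, Cxcl2 and Cxcl3 held 3 matches each, all in the 97 bases next to the start, and Il6 held 1.
Cxcl1 (chr5:90890995-90891244, plus strand): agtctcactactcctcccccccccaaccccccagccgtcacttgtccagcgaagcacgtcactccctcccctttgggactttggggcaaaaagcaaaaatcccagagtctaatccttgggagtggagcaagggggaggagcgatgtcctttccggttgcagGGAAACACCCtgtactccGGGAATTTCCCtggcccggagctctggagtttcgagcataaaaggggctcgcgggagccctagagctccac
Cxcl2 (chr5:90903649-90903898, plus strand): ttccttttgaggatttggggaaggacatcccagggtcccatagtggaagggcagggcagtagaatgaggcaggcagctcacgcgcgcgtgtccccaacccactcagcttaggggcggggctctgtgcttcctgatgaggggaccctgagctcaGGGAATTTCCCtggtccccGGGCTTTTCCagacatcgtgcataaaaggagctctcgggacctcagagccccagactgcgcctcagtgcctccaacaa
Cxcl3 (chr5:90785851-90786100, plus strand): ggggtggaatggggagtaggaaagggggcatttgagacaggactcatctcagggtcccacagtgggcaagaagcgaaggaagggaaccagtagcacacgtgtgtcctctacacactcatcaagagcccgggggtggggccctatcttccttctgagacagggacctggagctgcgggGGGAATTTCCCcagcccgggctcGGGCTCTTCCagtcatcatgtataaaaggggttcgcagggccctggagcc
Il6 (chr5:30012864-30013113, plus strand): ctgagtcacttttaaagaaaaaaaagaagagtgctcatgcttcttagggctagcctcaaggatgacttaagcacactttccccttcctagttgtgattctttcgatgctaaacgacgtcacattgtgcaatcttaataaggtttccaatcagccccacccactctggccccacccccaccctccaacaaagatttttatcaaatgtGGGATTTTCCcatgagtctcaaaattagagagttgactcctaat
The element was present in 4.65% of all 32851 such windows. By gene, counted once if any of its windows held it, the element was present in 7.43% of those called higher (64 of 861). It was present in 6.79% of genes called lower (52 of 766) and 6.16% of those not called (505 of 8194). A share of genes and a share of windows are unlike measures. The AP-1 element, the word of Fos and Jun dimers, was searched as TGA, any base and TCA. It was present in 9.29%, 7.44% and 5.22% of these genes in the same order, and in 6.75% of all windows. A match is a description of these letters and not a binding site.

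Of the receptors that read these signals, chemokine receptors had 5 of 12 called lower and 1 higher. Ccr2, the receptor of inflammatory monocytes, stood at 16.1, 8.64 and 7.09 with FcMR and 56.5, 39.9 and 29.1 with isotype (log2 fold change −1.98, SE 0.35, adjusted p 0.000508). Cx3cr1, the fractalkine receptor, was at 4.92, 4.45 and 4.32 against 11, 11 and 9.74 (log2 fold change −1.21, SE 0.18, adjusted p 0.000111). Ccr1 (−0.88) and Cxcr4 (−0.53) were lower as well. The exception was Ccrl2, an atypical receptor that presents chemerin, at 191, 204 and 194 against 57.2, 62.9 and 59.2 (log2 fold change 1.72, SE 0.09, adjusted p 6.99e-10). Among 37 cytokine receptors, 8 were called higher and 7 lower, with a median of 0.02. Both chains of the interleukin 6 receptor were lower, Il6st (−0.88) and Il6ra (−0.55), as was Il18r1 (−1.86), whereas Csf3r, the G-CSF receptor (0.86), Tnfrsf1b, a TNF receptor (0.59), and Ifnar2, a chain of the type I interferon receptor (0.69), were higher. Csf1r, the receptor of macrophage colony-stimulating factor, differed by −0.24 (adjusted p 0.136) and was not called.

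Receptors for microbial molecules changed in both directions. Of 26 Toll-like and NOD receptors with their adaptors, 8 were called higher and 2 lower (13 and 3 after the GC correction). Tlr2, the sensor of lipoproteins, was at 744, 644 and 643 against 319, 344 and 326 (log2 fold change 1.04, SE 0.09, adjusted p 4.19e-07), and its partner Tlr1 rose by 1.18. Cd14, a co-receptor for lipopolysaccharide, was at 489, 795 and 806 against 220, 245 and 243 (log2 fold change 1.56, SE 0.27, adjusted p 0.000438), with FcMR replicate 1 the lowest of the FcMR libraries. Tlr4 was not called, at −0.03 (SE 0.20, adjusted p 0.96). Nod2, which senses muramyl dipeptide inside the cell, rose by 0.94.

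C-type lectin receptors, the family to which the mannose receptor belongs, split into 6 higher and 7 lower of 25 tested (3 and 8 without FcMR replicate 1). Clec4e (Mincle), which binds mycobacterial glycolipid and signals through the Fc receptor gamma chain, was at 4937, 3712 and 3743 with FcMR and 1090, 1203 and 1264 with isotype (log2 fold change 1.8, SE 0.15, adjusted p 1.12e-07). Clec7a (Dectin-1), the receptor of beta-glucans, went down, at 1167, 937 and 921 against 1693, 1768 and 1857 (log2 fold change −0.81, SE 0.14, adjusted p 0.00042). The related lectin genes Clec4a2 (−1.12) and Clec4b1 (−1.40) were lower and Cd69, an early activation marker, was higher (1.64).

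Since FcMR carries a human Fc region, Fc receptors and the ITAM adaptors they share were followed as a group. Of 33 tested, 12 were called higher and 5 lower (15 and 8 after the GC correction). Fcgr2b, the inhibitory IgG receptor, stood at 496, 416 and 435 against 241, 227 and 247 (log2 fold change 0.91, SE 0.09, adjusted p 2.07e-06). The activating receptors Fcgr1 (−0.07, adjusted p 0.77) and Fcgr3 (−0.41, adjusted p 0.0525) were not called. Fcer1g, the signalling chain of the activating receptors, rose by 0.54 and the kinase Syk by 0.54. Trem1, which amplifies inflammation, rose from 10.3, 7.33 and 8.01 to 34.9, 28.3 and 28 CPM (log2 fold change 1.82, SE 0.15, adjusted p 1.02e-07), and Trem2, a receptor for lipids and dead cells, was at 53, 100 and 98.3 against 202, 200 and 223 (log2 fold change −1.31, SE 0.27, adjusted p 0.00236). Their shared adaptor Tyrobp (DAP12) was lower by 0.66 (adjusted p 0.0359) but was called in 1 of the 6 fits that left out a library (−0.57, adjusted p 0.133, without FcMR replicate 1).

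The CD300 family, myeloid receptors for phospholipids in which most members were lowered, had 6 of 8 tested called lower and 1 higher, with a median of −1.16. Cd300lb, an activating receptor that couples to DAP12, was at 36.2, 30.5 and 33.9 with FcMR and 156, 158 and 163 with isotype (log2 fold change −2.25, SE 0.09, adjusted p 5.19e-11), and its values within each group lay close together. Cd300a, an inhibitory receptor for phosphatidylserine, stood at 23.4, 21.9 and 22.2 against 56.7, 52.7 and 55.7 (log2 fold change −1.29, SE 0.09, adjusted p 3.57e-08). Cd300c2 (−1.13), Cd300ld (−1.20) and Cd300lf (−0.76) fell too, and Cd300e rose, by 0.96. Several of these are close copies in a cluster on chromosome 11, so reads can be divided among them.

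Of 30 genes of the NF-kB pathway and its inhibitors, 13 were called higher and 0 lower, with a median of 0.36 (22 and 1 after the GC correction). Inhibitors were among them: Nfkbia, which holds NF-kB in the cytoplasm, was at 336, 432 and 417 against 148, 163 and 170 (log2 fold change 1.30, SE 0.17, adjusted p 3.4e-05), and Tnfaip3 (A20), a ubiquitin editor, at 490, 492 and 473 against 197, 209 and 202 (log2 fold change 1.26, SE 0.08, adjusted p 7.78e-09). Nfkbiz, a nuclear cofactor for secondary genes such as Il6, rose by 1.34, Tank by 0.79 and the subunit gene Nfkb1 by 0.59. For 2 subunits the libraries of the FcMR group disagreed. Nfkb2 stood at 199, 405 and 391 with FcMR and 179, 196 and 200 with isotype and was not called (log2 fold change 0.79, SE 0.33, adjusted p 0.122), yet it was called without replicate 1 (1.05, adjusted p 0.0341) and after the GC correction (1.06, adjusted p 7.51e-11). Rela was at 76.9, 135 and 130 against 98.5, 102 and 100 (log2 fold change 0.19, SE 0.28, adjusted p 0.765) and was called after the GC correction (0.47, adjusted p 0.000218).

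Feedback phosphatases, SOCS and mRNA decay genes, which end such signals, had 10 of 26 called higher and 3 lower. Irak3, a brake on Toll-like receptor signalling, was at 151, 128 and 132 against 55.2, 59 and 60.6 (log2 fold change 1.23, SE 0.08, adjusted p 1.61e-08), Dusp16, a JNK phosphatase, at 86.5, 74.6 and 78.1 against 36.2, 39.3 and 33.3 (log2 fold change 1.14, SE 0.10, adjusted p 2.98e-07), and Socs3, which limits interleukin 6 signalling, at 114, 208 and 208 against 36.8, 37.6 and 44.6 (log2 fold change 2.15, SE 0.31, adjusted p 7.11e-05). Socs1, the corresponding brake on interferon signals, was at 12.2, 45.1 and 44.5 against 9.42, 10.7 and 15, and its groups overlapped, since FcMR replicate 1 lay below isotype replicate 3 (log2 fold change 1.52, SE 0.50, adjusted p 0.0468). It was called in 1 of the 6 fits that left out a library. The mRNA decay gene Zfp36l2 went down, by 0.69.

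Stimulus-induced transcription factors were called in both directions, with 8 higher and 10 lower of 40. Fos, a partner in AP-1, was at 6.24, 9.95 and 8.6 with FcMR and 40.6, 34.2 and 34.7 with isotype (log2 fold change −2.14, SE 0.18, adjusted p 1.27e-07). Myc, a driver of growth, stood at 2.72, 3.93 and 4.27 against 12.7, 13.1 and 11.4 (log2 fold change −1.75, SE 0.28, adjusted p 0.000218), and Egr1 (−1.03), Klf4 (−1.25) and Klf10 (−0.85) were lower as well. Nr4a2 (1.37), an orphan nuclear receptor, Ets2 (0.80), Klf7 (0.76) and Klf3 (0.64) were higher. Among 30 factors of myeloid identity, 6 were higher and 6 lower (7 and 10 after the GC correction). Pparg, the lipid-sensing nuclear receptor, was at 3.45, 3.58 and 4.23 against 12.5, 10.9 and 9.78 (log2 fold change −1.54, SE 0.17, adjusted p 3.15e-06). Bach1, a heme-sensitive repressor, fell by 0.76. Spic, a factor of red pulp macrophages, was at 81.7, 66.2 and 65.2 against 20.3, 26.1 and 21.9 (log2 fold change 1.65, SE 0.17, adjusted p 1.57e-06), Gfi1 rose by 1.96 and Irf4 by 0.60.

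Interferon-stimulated genes were raised as a broad group of mostly modest steps. Of 49 antiviral members tested, 28 were called higher and 0 lower, with a median of 0.58 (25 and 0 without FcMR replicate 1, 38 and 1 after the GC correction). Ifit1, which binds foreign RNA caps, was at 1184, 928 and 905 against 397, 387 and 402 (log2 fold change 1.35, SE 0.17, adjusted p 1.32e-05). Rsad2 (viperin) stood at 1991, 1565 and 1338 against 776, 785 and 787 (log2 fold change 1.06, SE 0.17, adjusted p 0.00021), and Ifih1 (MDA5), an RNA sensor, at 414, 346 and 325 against 166, 179 and 174 (log2 fold change 1.06, SE 0.13, adjusted p 1.31e-05). Isg15 (0.96), Usp18 (0.74), which removes ISG15, and Mx1 (0.60) rose by less than 2-fold. A larger step was that of Ifi205, of the DNA-sensing PYHIN family, at 627, 440 and 436 against 98.6, 103 and 108 (log2 fold change 2.28, SE 0.19, adjusted p 1.46e-07). Of 12 PYHIN genes, 7 were called higher and 0 lower, but 3 higher without FcMR replicate 1.

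Guanylate-binding proteins and immunity-related GTPases, which attack the vacuoles of parasites and bacteria, had 14 of 19 called higher and 0 lower, with a median of 0.92. Gbp5 stood at 880, 725 and 688 with FcMR and 156, 171 and 172 with isotype (log2 fold change 2.20, SE 0.17, adjusted p 7.63e-08). Gbp2 was at 2320, 1868 and 1751 against 866, 963 and 946 (log2 fold change 1.10, SE 0.14, adjusted p 2.95e-05), and Iigp1 at 47.8, 34.3 and 23 against 10.7, 11.9 and 11 (log2 fold change 1.65, SE 0.22, adjusted p 4.04e-05), with FcMR replicate 1 the highest of the 3. Gbp3 (1.42), Gbp4 (1.55) and Gbp6 (1.31) followed. These genes are close copies of each other, which makes the division of reads among them uncertain. The promoters of Gbp5 and Ifit1 are shown because they hold the interferon response element, the word that interferon regulatory factors and STAT complexes bind, searched as TTTC, any 2 bases and TTTC on both strands in the same windows, with matches in capitals.
Gbp5 (chr3:142496684-142496933, plus strand): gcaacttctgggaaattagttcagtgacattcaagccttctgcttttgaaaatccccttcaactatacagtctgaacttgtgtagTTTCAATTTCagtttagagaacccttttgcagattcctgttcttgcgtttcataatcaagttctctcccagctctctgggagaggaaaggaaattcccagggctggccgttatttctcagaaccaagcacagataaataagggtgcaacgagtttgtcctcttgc
Ifit1 (chr19:34640639-34640888, plus strand): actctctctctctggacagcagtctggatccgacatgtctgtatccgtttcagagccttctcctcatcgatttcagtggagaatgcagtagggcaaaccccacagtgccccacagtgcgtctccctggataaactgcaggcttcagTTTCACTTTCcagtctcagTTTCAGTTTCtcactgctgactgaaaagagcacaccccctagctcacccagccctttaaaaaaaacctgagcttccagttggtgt
Gbp5 held 1 match and Ifit1 held 2. By gene, the element was present in 8.36% of those called higher (72 of 861), 3.13% of those called lower (24 of 766) and 3.14% of those not called (257 of 8194). By window, it was present in 2.98% of all windows.

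Genes upstream of this response took smaller steps. Ifnb1, the gene of interferon beta, was counted 2, 2 and 3 times with FcMR and 4, 1 and 16 times with isotype and was not called (adjusted p 0.739). Of 20 IRF, JAK and STAT genes, 5 were called higher and 0 lower (9 and 1 after the GC correction). Irf1 was at 216, 227 and 217 against 130, 155 and 146 (log2 fold change 0.61, SE 0.10, adjusted p 0.000277), and Stat4 rose by 0.81. Irf7 was at 488, 886 and 871 against 448, 469 and 529 and was not called (log2 fold change 0.63, SE 0.26, adjusted p 0.123). As for Nfkb2, replicate 1 lay apart from the others of its group, and Irf7 was called without it (0.86, adjusted p 0.0278).

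Antigen presentation by MHC class I had 6 of 23 members called higher and 0 lower, with a median of 0.30 (8 and 0 without FcMR replicate 1, 17 and 0 after the GC correction). H2-Q6 (0.92), H2-T22 (0.72) and H2-M3 (0.60), non-classical class I genes, and Psme2 (0.57), a proteasome activator, were among them. B2m, the light chain (0.22, adjusted p 0.112), and Tap1, the peptide transporter (0.36, adjusted p 0.328), were not called. Class II genes gave 0 higher and 1 lower of 14 (2 and 3 after the GC correction). H2-Aa was at 1571, 1790 and 1766 against 1963, 1830 and 1795 (log2 fold change −0.12, SE 0.09, adjusted p 0.463), and H2-Ab1 at 876, 1653 and 1579 against 1151, 1314 and 1410 (log2 fold change 0.08, SE 0.28, adjusted p 0.91). The one called lower was Lgmn, a lysosomal protease, which fell by 0.84 (SE 0.08, adjusted p 1.17e-06).

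Costimulators and checkpoint ligands, which set how T cells respond to antigen, had 12 of 24 called higher and 4 lower, with a median of 0.52. Cd40, the receptor of helper T cells, was at 546, 737 and 660 against 149, 184 and 160 (log2 fold change 1.98, SE 0.19, adjusted p 1.01e-06). Cd80, a ligand of CD28, stood at 55.8, 46.8 and 42.6 against 16.4, 17 and 15.6 (log2 fold change 1.57, SE 0.17, adjusted p 3.04e-06), and Cd86, its partner, rose by 0.97. Icosl (1.08), Slamf1 (2.31) and Cd274 (0.83), the checkpoint ligand PD-L1, were higher too. Its relative Pdcd1lg2 (PD-L2) went down, at 29.1, 21.5 and 23.4 against 43, 43.3 and 34.1 (log2 fold change −0.69, SE 0.15, adjusted p 0.00378), and so did the inhibitory receptor Cd200r1 (−1.06).

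Inflammasome and lytic death genes were divided by step, with 8 of 21 higher and 3 lower (8 and 1 without FcMR replicate 1, 9 and 5 after the GC correction). The sensor Nlrp3 stood at 182, 183 and 193 against 70.4, 71.1 and 70.9 (log2 fold change 1.39, SE 0.09, adjusted p 9.56e-09), the sensor Mefv (pyrin) rose by 1.29, and Nlrp1b fell by 1.56. Casp4, the mouse caspase-11 that binds cytosolic lipopolysaccharide, was at 163, 129 and 126 against 52, 60.7 and 58 (log2 fold change 1.29, SE 0.15, adjusted p 7.16e-06) and Casp1 rose by 0.77. The adaptor Pycard (ASC) fell by 0.63 (−0.52 with adjusted p 0.053 without FcMR replicate 1), and Gsdmd, the pore protein, was not called (−0.11, adjusted p 0.651). Of 24 BCL-2 family genes and caspase regulators, 8 were higher and 3 lower. Survival genes were found on both sides: Cflar, an inhibitor of caspase-8, was at 792, 668 and 662 against 285, 281 and 293 (log2 fold change 1.30, SE 0.10, adjusted p 1.02e-07) and Bcl2a1b rose by 0.90, while Bcl2 fell by 0.75 and the pro-death Bmf by 0.81. Bcl2a1b has near-identical copies and its count is uncertain.

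Prostanoid and leukotriene synthesis was divided by enzyme, with 4 of 22 called higher and 7 lower. The genes of prostaglandin E2 synthesis rose: Pla2g4a, which frees arachidonic acid, by 0.93, the inducible cyclooxygenase Ptgs2 from 23, 30.1 and 28 to 353, 317 and 253 CPM (log2 fold change 3.51, SE 0.20, adjusted p 2.27e-09), and the terminal synthase Ptges from 29.8, 36.8 and 39.3 to 143, 178 and 206 CPM (log2 fold change 2.32, SE 0.19, adjusted p 1.46e-07). The constitutive cyclooxygenase Ptgs1 was at 10.7, 12 and 11.6 against 36.4, 29.5 and 31.7 (log2 fold change −1.51, SE 0.11, adjusted p 5.28e-08). Lower as well were Tbxas1, the thromboxane synthase (−0.90), and the leukotriene genes Alox5, at 4.55, 3.67 and 4.27 against 18.1, 15 and 13.4 (log2 fold change −1.89, SE 0.24, adjusted p 1.6e-05), and Alox5ap (−0.66).

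Arginine metabolism gave 5 higher and 2 lower of 20. Nos2, the inducible nitric oxide synthase, was at 67.7, 85 and 70.6 with FcMR and 10.4, 9.39 and 10.4 with isotype (log2 fold change 2.87, SE 0.25, adjusted p 2.34e-07). Slc7a2, the transporter that brings in its substrate arginine, stood at 3145, 2876 and 3006 against 660, 710 and 733 (log2 fold change 2.10, SE 0.11, adjusted p 1.15e-09). Arg2, the mitochondrial arginase, rose by 1.37, and Gch1, which starts the synthesis of the cofactor of Nos2, by 0.54, the latter called in 4 of the 6 fits that left out a library. Arg1, a classic marker of alternative activation, was low in both groups, at 0.954, 1.4 and 0.971 against 2.41, 1.32 and 1.33 (log2 fold change −0.63, SE 0.39, adjusted p 0.339). Acod1, which makes itaconate, was at 4809, 4665 and 4662 against 1880, 2054 and 2038 (log2 fold change 1.24, SE 0.09, adjusted p 3.57e-08), but the list of itaconate and TCA cycle genes as a whole gave 2 higher and 1 lower of 26, with a median of −0.12 (6 and 4 after the GC correction). Glucose uptake and glycolysis gave 0 higher and 3 lower of 26 (0 and 1 without FcMR replicate 1, 3 and 4 after the GC correction), with Slc2a1 (−0.33, adjusted p 0.6) and Hk2 (0.14, adjusted p 0.507) not called. Of the hypoxia list, 4 of 21 were higher and 3 lower (4 and 1 without FcMR replicate 1, 7 and 3 after the GC correction), Hif1a rising by 0.69.

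Redox and iron genes contributed single large steps. Sod2, the mitochondrial superoxide dismutase, was at 1101, 1041 and 1145 against 446, 495 and 537 (log2 fold change 1.15, SE 0.09, adjusted p 4.34e-08), and 6 of 25 NRF2 antioxidant genes were higher and 0 lower, including Slc7a11 (0.61), the cystine importer, and Hmox1 (0.65, called in 3 of the 6 fits that left out a library). Of 8 NADPH oxidase genes, Ncf1 (0.66) and Cybb (0.42) were called higher, Cybb in 2 of the 6 fits that left out a library (adjusted p 0.163 without FcMR replicate 1). Iron handling gave 4 higher and 2 lower of 16 (5 and 4 after the GC correction). Cp (ceruloplasmin) was at 16.4, 12.2 and 9.03 against 2.36, 2.49 and 1.64 (log2 fold change 2.58, SE 0.36, adjusted p 5.67e-05), Slc39a14, an iron and zinc importer, rose by 1.01, and Steap3, a ferric reductase, fell by 1.45. Acute-phase and secreted defence proteins had 10 of 25 higher and 0 lower, with a median of 0.48. Saa3, a serum amyloid A, stood at 2311, 2664 and 3055 against 461, 485 and 565 (log2 fold change 2.41, SE 0.19, adjusted p 7.57e-08), Lcn2, which captures bacterial iron carriers, at 304, 422 and 486 against 114, 102 and 117 (log2 fold change 1.87, SE 0.21, adjusted p 5.71e-06), and Cfb, a complement factor, at 3113, 2915 and 3163 against 1306, 1232 and 1460 (log2 fold change 1.20, SE 0.12, adjusted p 1.91e-06). Slpi (1.58), Ptx3 (1.11) and Chil1 (0.99) rose too, and Chil3 was not called (0.17, adjusted p 0.609).

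Receptors for uptake were followed next. Of 21 scavenger and dead-cell uptake receptors, 1 was called higher and 5 lower (2 and 11 after the GC correction). Gpnmb, a lysosomal glycoprotein, was at 3719, 5141 and 4789 against 7349, 7527 and 7647 (log2 fold change −0.72, SE 0.12, adjusted p 0.000332) and Colec12, a scavenger receptor, at 14.4, 14.7 and 12.6 against 29.3, 28.2 and 26.8 (log2 fold change −1.02, SE 0.11, adjusted p 2.94e-06). Marco, a bacterial scavenger receptor, was the one called higher, at 252, 238 and 353 against 137, 87.7 and 139 (log2 fold change 1.21, SE 0.32, adjusted p 0.0141), in 4 of the 6 fits that left out a library, and Mertk was not called (−0.15). Complement genes gave 2 higher and 4 lower of 19: C3ar1, an anaphylatoxin receptor, stood at 37.3, 28.2 and 27.2 against 121, 98.4 and 95.3 (log2 fold change −1.77, SE 0.15, adjusted p 1.65e-07), and Itgam, a chain of complement receptor 3, fell by 0.67. The alternative activation list had 8 of 23 lower and 2 higher, the latter being the chemokines Ccl17 and Ccl22.

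Lipid genes were called in both directions. Sterol synthesis and LDL uptake gave 0 higher and 5 lower of 24 (3 and 8 after the GC correction), with Dhcr7 (−0.72) and Sqle (−0.37) among the latter. Of 23 LXR targets and cholesterol efflux genes, 1 was higher and 6 were lower (3 and 8 after the GC correction). Nceh1, which hydrolyses cholesterol esters, was at 83.5, 80.9 and 87.8 against 173, 158 and 155 (log2 fold change −0.94, SE 0.08, adjusted p 2.98e-07), Scd1, a desaturase, fell by 0.78, and Ch25h, which makes 25-hydroxycholesterol, rose by 1.72. Abca1, the cholesterol exporter, was not called (0.26, adjusted p 0.0988). In fatty acid uptake, storage and oxidation 4 were higher and 8 lower of 29. Fabp4, a fatty acid carrier, stood at 36.5, 26.4 and 30.1 against 89.9, 68.7 and 81.9 (log2 fold change −1.37, SE 0.12, adjusted p 3.44e-07) and Fabp5 fell by 0.67, while the acyl-CoA synthetases Acsl1, at 1480, 1327 and 1354 against 465, 486 and 468 (log2 fold change 1.55, SE 0.09, adjusted p 3.63e-09), and Acsl5 (0.86) rose.

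Cell cycle genes were lower in part. In DNA replication and G1/S, 10 of 32 were called lower and 2 higher, with a median of −0.58. The D-type cyclins went opposite ways: Ccnd1 was at 21.9, 24.8 and 14.2 against 63, 57.7 and 41.9 (log2 fold change −1.42, SE 0.22, adjusted p 0.000122), and Ccnd2 at 409, 354 and 285 against 89, 92.9 and 70.2 (log2 fold change 2.06, SE 0.17, adjusted p 1.43e-07). E2f2 (−1.92), a transcription factor of S phase, Mcm2 (−0.80), of the replicative helicase, and Pcna (−0.63), the polymerase clamp, were lower, and Tyms, thymidylate synthase, was higher (1.30). In mitosis and G2/M, 2 of 30 were higher and 3 lower, with a median of −0.60 (2 and 6 after the GC correction). Cenpa, the centromeric histone, was at 5.65, 4.45 and 5.05 against 15.7, 13.9 and 13.2 (log2 fold change −1.49, SE 0.17, adjusted p 5.77e-06) and Top2a was not called (−0.46, adjusted p 0.39). Mki67, the gene of the Ki-67 proliferation antigen, was higher, at 113, 84.1 and 85.6 against 42.6, 34.3 and 32.1 (log2 fold change 1.37, SE 0.24, adjusted p 0.000522), beside 104 ± 22.1 CPM in untreated cells.

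Organelle and stress lists were mixed. Lysosomal hydrolases had 1 of 31 higher and 6 lower (3 and 11 after the GC correction), Lipa, the acid lipase, falling by 0.51 and Ctsc, which activates serine proteases, rising by 0.85. Of 24 genes of the unfolded protein response and ATF4 targets, 0 were called in either direction by edgeR, 6 had an unadjusted p under 0.05, DESeq2 called 2 and limma 1, and the median was 0.08. After the GC correction 6 were called higher. Hspa5, the main chaperone of the endoplasmic reticulum, differed by 0.23 (adjusted p 0.202). Heat shock genes had 5 of 13 higher and 0 lower (8 and 0 after the GC correction), among them Hsp90ab1 (0.35) and Hspa8 (0.39).

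Proteases and their inhibitors were followed by family. Of 17 serpins, 9 were higher and 0 lower, with a median of 0.57. Serpinb2 (PAI-2), an inhibitor of plasminogen activators, was at 104, 74.7 and 60.3 against 18.2, 15.5 and 12.6 (log2 fold change 2.38, SE 0.23, adjusted p 9.88e-07), and Serpine2 rose by 2.24. Plau, the urokinase that Serpinb2 inhibits, stood at 59.6, 63.6 and 53.1 against 130, 124 and 104 (log2 fold change −1.02, SE 0.11, adjusted p 2.38e-06), its receptor Plaur was not called (−0.56, adjusted p 0.242), and Thbd, thrombomodulin, fell by 1.74. Matrix metalloproteinases and their inhibitors gave 2 higher and 5 lower of 13 (4 and 6 after the GC correction), with Timp1 higher (0.83) and Timp2 (−0.99) and Mmp8 (−1.15) lower. Integrins split evenly, 6 higher and 6 lower of 20 (3 and 5 without FcMR replicate 1). Itgb8, which activates TGF-beta, was at 60.3, 54 and 53 against 13.2, 16 and 17.2 (log2 fold change 1.85, SE 0.20, adjusted p 3.18e-06), Itgal, of the LFA-1 integrin, rose by 0.87, and Itgb5 (−1.27) and Itgb3 (−1.08), of vitronectin receptors, fell.

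Among the symbol families, a few stood above the background shares in 1 direction. The proteasome had 13 of 44 subunits higher and 0 lower (26 higher after the GC correction), among them Psma6 (0.83), Psma5 (0.63) and Psmd11 (0.57). Tripartite motif genes had 12 of 42 higher and 2 lower (7 and 2 without FcMR replicate 1), among them Trim30c (2.36) and Trim21 (1.14), a cytosolic antibody receptor. MS4A genes had 4 of 12 higher and 0 lower, Ms4a4c standing at 306, 216 and 205 against 72.7, 72.6 and 80.6 (log2 fold change 1.68, SE 0.20, adjusted p 1.07e-05). Poly-ADP-ribose polymerases had 5 of 12 higher and 0 lower (8 and 0 after the GC correction), Parp14 rising by 0.68. Regulators of G protein signalling went the other way, with 4 of 12 lower, 0 higher and a median of −0.59. Rgs2 was at 48.9, 33.8 and 31.4 against 143, 111 and 118 (log2 fold change −1.71, SE 0.16, adjusted p 5.44e-07).

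Among the large families, solute carriers gave 20 higher and 27 lower of 210 (39 and 38 after the GC correction). Cytosolic ribosomal proteins gave 2 higher and 0 lower of 80 (median −0.21), mitochondrial ribosomal proteins 1 and 1 of 79 (8 and 1 after the GC correction), and the respiratory chain with ATP synthase 1 and 0 of 80. None of 13 mitochondrially encoded genes was called by edgeR, DESeq2 or limma, 0 had an unadjusted p under 0.05 in edgeR, and 2 were lower after the GC correction. Zinc finger genes gave 12 higher and 13 lower of 329 (6 and 10 without FcMR replicate 1, 19 and 21 after the GC correction). Translation initiation factors gave 3 and 3 of 53 (1 and 2 without FcMR replicate 1, 11 and 2 after the GC correction). Ptprc (CD45), a surface marker of leukocytes, was at 883, 668 and 656 against 676, 657 and 630 and was not called (log2 fold change 0.17, SE 0.14, adjusted p 0.515).

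The 12 h effect was then compared with the effects at 4 h and 24 h by testing the difference itself, the fold change at 12 h minus that at the other time, in the same fit. Both tests use the 12 h libraries, so they are not independent of each other. Against 4 h, 726 genes (5.39%) were called, 356 with a more positive effect at 12 h and 370 with a more negative one. This split moved with the scaling, to 226 and 453 with RLE factors and to 674 and 1206 after the GC correction. The count also rested on single libraries: it was 1422 without isotype 4 h replicate 3, and from 323 to 463 without any other single library of the 4 groups except FcMR 12 h replicate 2 and FcMR 4 h replicate 3. Against 24 h, 233 genes (1.73%) were called, 83 more positive at 12 h and 150 more negative, and 737 after the GC correction.

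The effect on Mamdc2 was −0.62 at 4 h and −2.55 at 12 h (difference −1.94, adjusted p 7.74e-08), and that on Emp1 −0.35 and −2.19 (difference −1.84, adjusted p 2.16e-05). Nxpe5 went from −0.31 to −2.65. Mxd1, an antagonist of Myc, changed sign between these times, from 0.96 to −0.67 (adjusted p 5.6e-06), as did Ehd4, an endosomal ATPase, from 0.75 to −0.62 (adjusted p 5.6e-06). Among raised genes, Ereg went from 1.69 to 4.33 (adjusted p 0.000817) and Il1b from 2.57 to 4.00 (adjusted p 0.000595), and Acp2, a lysosomal acid phosphatase, from −0.17 to 0.67. Tnf and Ccl3 went the opposite way, Ccl3 from 2.87 at 4 h to 1.68 at 12 h and 0.05 at 24 h. Against 24 h, the smallest p-values belonged to Slc1a2, which went on from 3.96 at 12 h to 7.25 (difference −3.29, adjusted p 4.4e-06), Clec4e, from 1.8 to 4.12 (adjusted p 8.95e-06), Acsl1, from 1.55 to 3.30 (adjusted p 1.23e-06), and Ccl3. Acod1 had a smaller effect at 12 h (1.24) than at 24 h (2.28), and Cd300lb a more negative one (−2.25 against −1.28).

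**Figure D5:**
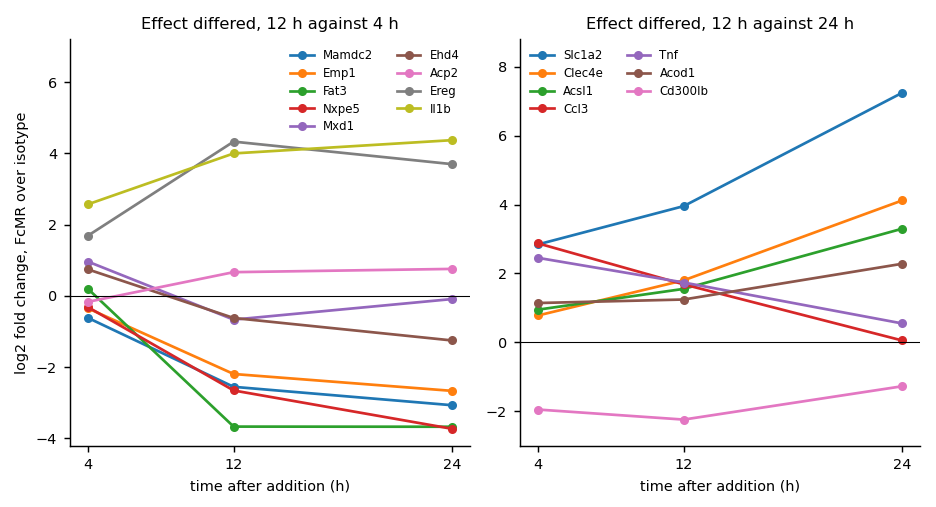
Log2 fold change of FcMR over isotype (vertical axis) at 4, 12 and 24 h after addition (horizontal axis), for genes whose effect differed between 12 h and 4 h (left) and between 12 h and 24 h (right), with 1 line per gene. Mamdc2 and Nxpe5 lay lower at 12 h than at 4 h, and Slc1a2, Clec4e and Acsl1 lay higher at 24 h than at 12 h.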

How the data were processed

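RNA-seq libraries (TruSeq RNA kit v2, 100 ng RNA, 75 bp single-end reads) were sequenced, per the labels' protocols. The submitters' processing notes name CASAVA 1.8.2, kallisto 0.44.0 and DESeq2 and the builds mm10 and GRCm38, with no roles. The authors deposited estimated counts per gene, which are whole numbers in the table, and a second table of normalised values, a signal used only in the limma alternatives. Symbols, positions and GC content came from the GENCODE M21 annotation (23206 of 23250 IDs matched), and promoter windows from RefSeq (9821 of 13467 tested symbols matched).

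Here the estimated counts of 21 libraries in 7 groups were fitted together with edgeR 4.0.16 in R 4.3.3 (TMM, filterByExpr with a minimum count of 10, quasi-likelihood test, 14 residual degrees of freedom), which was also tested on simulated data. Alternatives used DESeq2 1.42.0, limma 3.58.1 on log2 of the deposited signal plus 1 or 0.5, other filters and scaling, a replicate block, a loess GC correction (span 0.4) and left-out libraries. Genes were named as the 12 largest called fold changes in each direction (average log2 CPM of at least 1), up to 4 with the smallest p per list, members needed for a role, the 4 with the smallest p in each test between times, and a few genes fixed by name (such as Tnf, Nos2 and Ptprc). Members and lists were chosen with earlier results of these data known. Positions are on GRCm38. Families by symbol can include partner genes.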

Additional observations from a re-analysis of the deposited data

Results flagged for a closer look

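For the genes below the effect of FcMR at 12 h differed from that at another time by the test of the difference itself (edgeR, adjusted p under 0.05 over all genes). Only 3 kinds of gene were looked at: the 12 largest changes at 12 h in each direction, the 4 smallest p of each such test, and genes fixed by name. Differences of genes picked for their change at 12 h or for their p in these tests can be overstated by that choice. Values are the log2 fold change at 12 h minus that at the other time, and the tests share the 12 h libraries. Against 4 h, the effect at 12 h was more negative for Fat3 (−3.87), Slc36a2 (−2.58), Nxpe5 (−2.34), Mamdc2 (−1.94), Emp1 (−1.84), Mxd1 (−1.63), Efr3b (−1.37), Ehd4 (−1.36), Fam198b (−1.22), Ccl3 (−1.19) and Tnf (−0.72). It was more positive for Ereg (2.64), Il1b (1.43), Slc1a2 (1.11), Clec4e (1.02), Acp2 (0.83) and Acsl1 (0.60). Against 24 h, the effect at 12 h was more negative for Slc1a2 (−3.29), Clec4e (−2.32), Acsl1 (−1.75), Acod1 (−1.04), Cd300lb (−0.97) and Mxd1 (−0.58). It was more positive for Ccl3 (1.63), Tnf (1.19), Ehd4 (0.63) and Mamdc2 (0.52). Fat3 rests on at most 3 counts per FcMR library at 12 h.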

How the results depend on the processing

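At 12 h the counts of genes called stayed within 1.5 times of 2169 under every alternative run except the GC correction (3527 called, 1943 higher and 1584 lower) and the GC correction with the replicate block (3706, 2023 and 1683). Leaving out 1 library gave 1570 to 1841 genes, 872 to 1041 higher and 698 to 823 lower. The labels do not say whether replicate numbers pair the samples, and the main fit does not pair them. Same-numbered deviations correlated at 0.20, 0.05 and 0.07, and differently numbered ones at −0.16 to 0.11. FcMR replicates 1 and 3 correlated best with their own number. With 3 libraries per group these correlations cannot decide whether the samples are paired. The replicate block alone called 2290.

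The comparison with 4 h depended most on the processing. Against the 726 genes called, of which 356 were higher and 370 lower, no filter gave 349 (76 higher), limma 400 with 1 added (107 higher) and 404 with 0.5 added (109 higher), and only the groups compared 359 (89 higher). RLE factors gave 226 higher and DESeq2 580 lower. The GC correction gave 1880 (674 and 1206), with the replicate block 2064 (730 and 1334), and without FcMR replicate 1 it gave 1639 (1109 lower). Leaving out 1 library gave 323 to 1422, 107 to 688 higher and 198 to 734 lower.

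Against 24 h (233, 83 higher and 150 lower), no filter gave 154 (98 lower), DESeq2 363 (158 higher), limma 138 (76 lower) and 136 (77 lower), and the GC correction 737 (323 and 414). With the replicate block the latter was 847 (383 and 464), and without FcMR replicate 1 it was 621 (254 and 367). Leaving out 1 library gave 156 to 223, 53 to 95 higher and 103 to 145 lower, with 53 without isotype 24 h replicate 1 and 54 without isotype 12 h replicate 3. The cause was not tested. The fits that joined the GC correction with leaving out FcMR replicate 1 were chosen after seeing the data. Of the 413 genes named, 347 were called, 300 of them in all 6 fits that left out a 12 h library, and none of the 347 changed sign under the settings run. Some genes that were not called did, such as Gsdmd, from −0.11 to 0.04 after the GC correction. Low counts in the smallest library, 6676302, limit genes near its floor of 0.449 CPM.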
